A study of Mus musculus with 16 samples.

Results

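The genes described here encode the subunits of the integrins and of the laminins, measured in the liver of WT mice and of mice without lipocalin 2 (Lcn2-/-), with and without carbon tetrachloride (CCl4). They were chosen by symbol alone: every probe of the array whose gene symbol is Itga or Itgb with the usual number or letter, or Lama, Lamb or Lamc with a number. This gave 36 genes on 48 probes, 26 integrin and 10 laminin genes, out of 36450 gene symbols with a usable probe. A gene was tested if a probe was well above background on at least 3 of the 16 arrays, which 33 of the 36 and 24357 genes in all were. Itgad passed on 1 array only and Itgb6 and Itgb8 on 0 arrays, so these 3 genes were not tested. The laminin beta chain Lamb1 stands on the array under its older name Lamb1-1, outside the rule, and its values are given as those of a related gene.

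Integrins are receptors of the cell surface built from an alpha and a beta subunit, which together decide the ligand: collagens, laminins, proteins with an arginine-glycine-aspartate (RGD) motif such as fibronectin and osteopontin, or adhesion molecules on other cells. Leukocytes carry a set of their own, in which the beta subunit Itgb2 pairs with Itgal, Itgam, Itgax or Itgad. Laminins are trimers of an alpha, a beta and a gamma chain that form the network of basement membranes. In the fibrotic liver, hepatic stellate cells become matrix-producing myofibroblasts, a basement membrane is laid down along the sinusoids, and integrins with the alpha v subunit release active TGF-beta from its latent complex.

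All animals were male BALB/c mice of 6 to 8 weeks. The 4 groups were WT given corn oil (WT control, n = 4), Lcn2-/- given corn oil (Lcn2-/- control, n = 3), WT given CCl4 (n = 5) and Lcn2-/- given CCl4 (n = 4), with 1 mouse on each array. CCl4 was injected into the peritoneum at 0.5 ml per kg of body weight 2 times a week for 4 weeks, and the liver was taken 48 h after the last dose. The Lcn2-/- line was made on another, mixed strain background and then crossed back to BALB/c, and it lacks the gene in all cells of the body. Values are quantile-normalized log2 signals, 1 probe a gene, so that a step of 1 is a doubling. They rank samples for the same gene and not genes against each other.

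Lcn2 itself, the targeted gene, was lower on every Lcn2-/- array than on every WT array. It read 13.80, 14.59, 17.57 and 14.69 in the WT controls and 10.46, 11.04 and 11.53 in the Lcn2-/- controls. After CCl4 it read 14.38, 16.49, 15.07, 14.22 and 14.28 in WT and 12.25, 10.60, 11.59 and 11.80 in Lcn2-/- mice. The difference between genotypes was -4.15 (SE 0.761, adjusted p = 0.0214, limma) in controls and -3.33 (SE 0.668, adjusted p = 0.0394) under CCl4. With the replicate number as a block both calls were lost, at -4.27 (adjusted p = 0.0636) and -3.48 (adjusted p = 0.0761), and the second also with the slide as a block (-3.45, adjusted p = 0.0555) and with no filter on dim probes (adjusted p = 0.0631). Without WT control 3, the highest, the difference in controls was -3.35 and still called. That call was lost without Lcn2-/- control 1 or 2 (adjusted p up to 0.116, limma). The call under CCl4 was lost when any of 13 arrays was left out (-3.56 to -2.93 over the 16 arrays, adjusted p up to 0.107). Whether the probe lies in the deleted part of the gene was not analysed here.

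The arrays carried 51.6% to 60.9% of their gene spots well above background and no saturated spot. Markers of hepatocytes averaged 18.37 to 18.64 on every array. WT control 3 and Lcn2-/- control 3 stood apart from the other controls. Their markers of all leukocytes (7 of 7 genes tested) averaged 12.58 and 11.97, against 10.31 to 11.22 in the other 5 controls. The arrays lay on 2 slides. The first held all controls and WT CCl4 1, and the second the other 8 arrays of treated mice. Slide and treatment therefore cannot be told apart in Lcn2-/- mice, and in WT mice only WT CCl4 1 separates them.

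The stretches of DNA around the start sites of 5 of the 7 genes called in both genotypes are shown. Itga3 and Lama5, also called in both, had windows too, which are counted below but not shown. They are RefSeq windows of 300 bases, from 250 before to 50 after the start, on the GRCm38.p6 build, read 5′ to 3′ in the direction of the gene. Of the 36 genes, 22 had such a window, some more than 1, giving 25 windows. Capitals mark a match, on either strand, to GAGGAA (the core of the PU.1 site), TGANTCA (AP-1), GGGCGG (the GC box), TATAAA (the TATA box) or GGAATG (TEAD). No 2 matches overlap in the windows shown.
Itgax, chr7:128129300-128129599, plus strand: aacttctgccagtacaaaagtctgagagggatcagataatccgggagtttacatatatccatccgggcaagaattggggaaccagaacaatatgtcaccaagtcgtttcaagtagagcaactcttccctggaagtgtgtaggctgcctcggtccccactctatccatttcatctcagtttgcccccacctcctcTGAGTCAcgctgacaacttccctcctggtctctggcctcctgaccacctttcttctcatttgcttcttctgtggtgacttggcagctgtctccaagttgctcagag
Itga8, chr2:12301895-12302194, minus strand: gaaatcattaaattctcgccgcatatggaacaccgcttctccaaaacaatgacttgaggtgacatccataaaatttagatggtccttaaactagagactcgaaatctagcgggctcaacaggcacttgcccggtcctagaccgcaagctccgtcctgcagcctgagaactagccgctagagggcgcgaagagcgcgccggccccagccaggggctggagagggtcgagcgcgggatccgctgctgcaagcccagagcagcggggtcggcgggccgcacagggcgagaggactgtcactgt
Itga11, chr9:62677605-62677904, plus strand: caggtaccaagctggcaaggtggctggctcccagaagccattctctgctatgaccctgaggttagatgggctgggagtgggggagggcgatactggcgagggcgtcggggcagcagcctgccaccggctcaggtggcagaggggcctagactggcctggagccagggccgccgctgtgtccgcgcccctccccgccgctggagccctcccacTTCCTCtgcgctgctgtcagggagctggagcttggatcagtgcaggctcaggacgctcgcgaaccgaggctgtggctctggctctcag
Lama2, chr10:27616893-27617192, minus strand: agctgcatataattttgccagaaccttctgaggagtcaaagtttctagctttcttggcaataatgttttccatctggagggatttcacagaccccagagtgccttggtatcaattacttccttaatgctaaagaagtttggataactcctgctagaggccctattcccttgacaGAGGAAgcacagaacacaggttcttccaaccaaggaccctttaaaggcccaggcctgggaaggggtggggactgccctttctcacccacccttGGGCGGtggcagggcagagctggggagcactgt
Lamb2, chr9:108479612-108479911, plus strand: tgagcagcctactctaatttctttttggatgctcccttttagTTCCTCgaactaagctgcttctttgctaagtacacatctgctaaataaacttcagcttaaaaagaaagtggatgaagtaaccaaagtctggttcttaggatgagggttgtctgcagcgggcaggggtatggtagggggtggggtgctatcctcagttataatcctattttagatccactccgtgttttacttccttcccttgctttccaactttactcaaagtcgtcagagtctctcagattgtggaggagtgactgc

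GAGGAA was present in 13 of the 25 windows, against 28.3% of all 32851 windows of the table. It lay 38 bases before the start of Itga11, 76 before that of Lama2 and 208 before that of Lamb2, counted from the first base of the match. TGANTCA was present in 3 windows, against 7.8% of all, and lay 56 bases before the start of Itgax. GGGCGG was present in 11 windows against 35.7%, GGAATG in 3 against 14.7%, and TATAAA in 0 of 25 against 13.6%. The window of Itga8 held none of the 5 motifs. These are matches of letters and not measured binding.

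A few members were higher by a large amount after CCl4 in both genotypes, among them Itgax, Itga8, Itga11 and Lama2, and most members moved little. In WT mice 8 of the 33 genes rose and 1 fell at an adjusted p under 0.05, which is 27.3% of them, where 16.7% of all genes were called (8.05% higher, 8.63% lower). In Lcn2-/- mice 9 of 33 rose and 0 fell, again 27.3%, where 12.1% of all genes were called (6.56% higher, 5.58% lower). Itgax, Itga8, Itga11, Itga3, Lama2, Lama5 and Lamb2 rose in both genotypes. The WT calls also held Itga10 and Lama3, and the Lcn2-/- calls Lamc1 and Lamc3. The median difference of the 33 genes was 0.34 in WT and 0.58 in Lcn2-/- mice, against -0.03 and -0.02 over all genes tested. The difference was above 0 for 26 of the 33 genes in WT and 27 in Lcn2-/- mice. Without WT control 3 and Lcn2-/- control 3, 11 genes passed in WT (Itga4, Itga9, Itgb2, Itgb7 and Lamc1 joined, and Itga10, Itga3 and Lama5 were lost) and 12 in Lcn2-/- mice (Itga4, Itgal, Itgb2 and Itgb7 joined, and Lama5 was lost), where 22.3% and 15.1% of all genes were called.

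**Figure D1:**
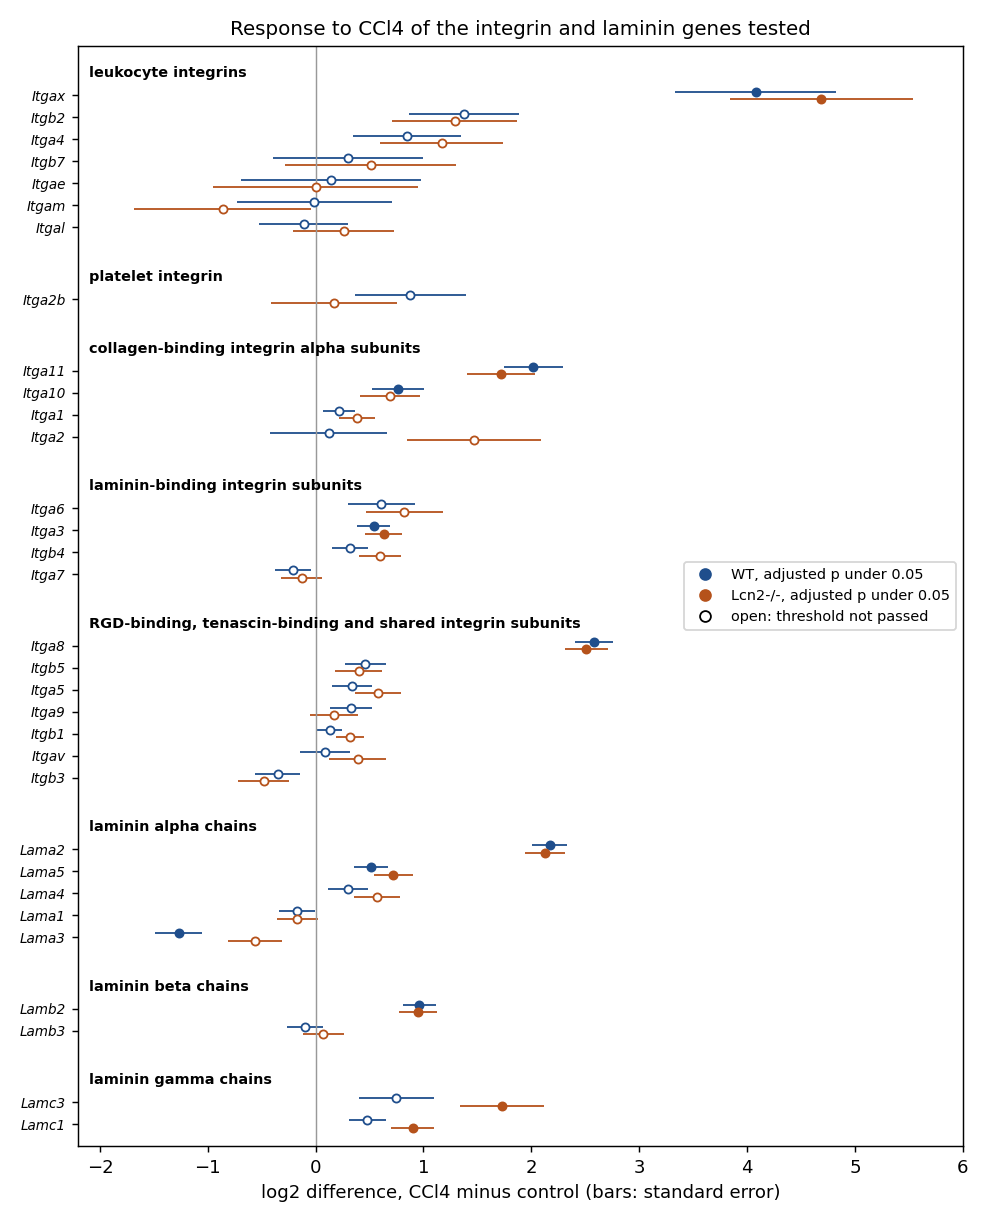
Log2 difference between CCl4 and control (x axis) for 32 of the 33 integrin and laminin genes tested, in WT (blue) and Lcn2-/- mice (brown), with the standard error as bars and filled points for an adjusted p under 0.05. Itgax stands furthest to the right at 4.08 and 4.69, and Lama3 furthest to the left among the filled points at -1.27.

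The slide bears on these counts. With the slide as a block, 6 of the WT calls remained (Itga11, Itga3, Itga8, Lama2, Lama3 and Lamb2) and 3 of the Lcn2-/- calls (Itga8, Lama2 and Lamb2), where 5.32% and 1.75% of all genes were called. In that fit the slide term rests on WT CCl4 1 alone. On the first slide, WT CCl4 1 was above all 4 WT controls for all 8 genes that rose in WT mice and below all 4 for Lama3. That array is itself among those behind the calls, so this is no separate check of them. It was also above all 4 for members not called, such as Itga1, Itgav and Itgb1. It was below all 4 for Itga7, Itgae and Lamb3 as well.

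**Figure D2:**
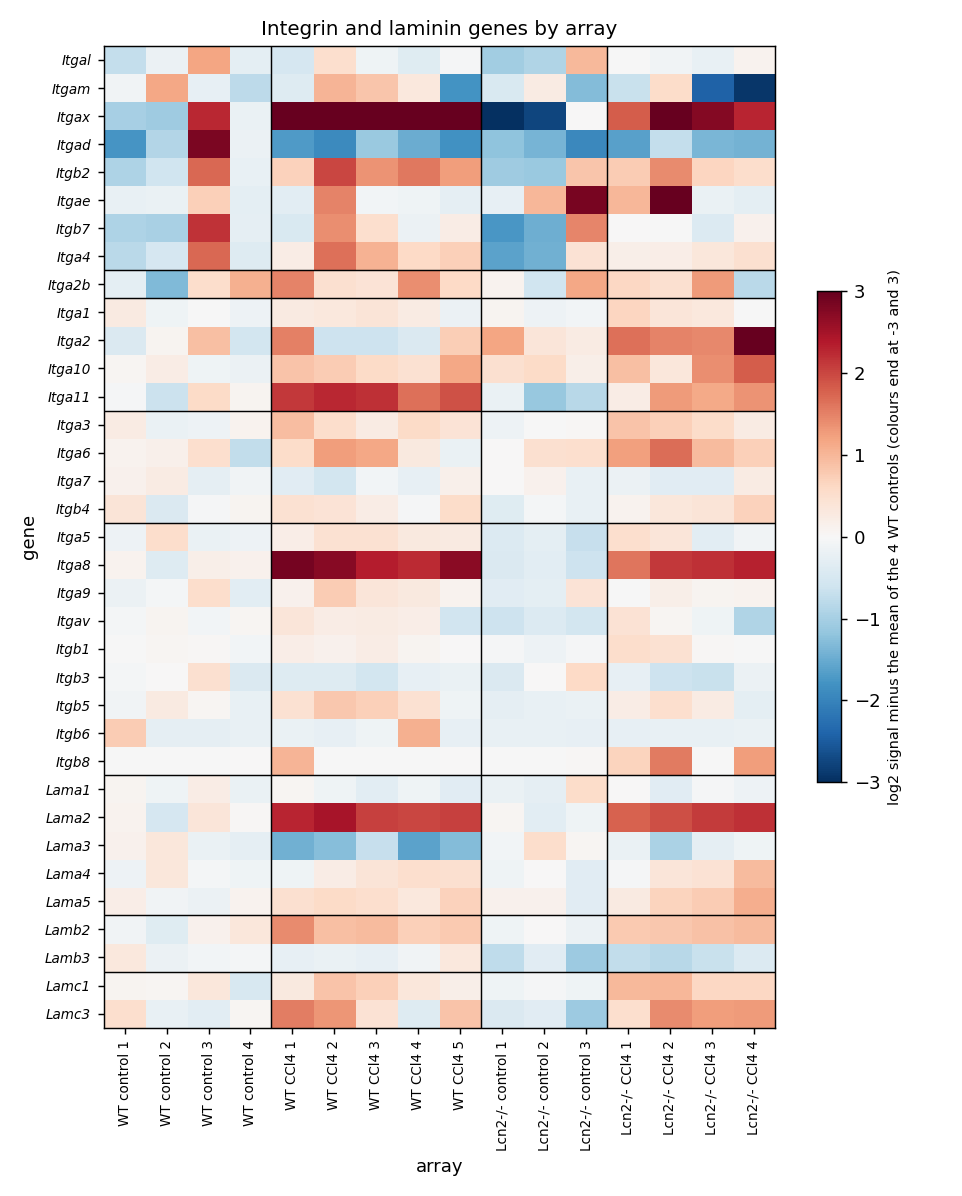
Log2 signal of 35 of the 36 genes (rows, by member group) on the 16 arrays (columns, by group), as the difference from the mean of the 4 WT controls; colours end at -3 and 3. Itgax, Itga8, Itga11 and Lama2 are red on the CCl4 arrays of WT mice, and Itgal, Itgax, Itgad, Itgb2, Itgb7 and Itga4 are also red on WT control 3.

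Of the 7 leukocyte integrins tested 1, Itgax, rose in each genotype, that is 14.3%, where 16.7% and 12.1% of all genes were called. Itgax encodes CD11c, a receptor of dendritic cells and of macrophages that come from monocytes. Its signal was 8.02, 7.95, 11.29 and 8.81 in the WT controls and 12.14, 13.43, 13.36, 13.57 and 13.00 after CCl4. The Lcn2-/- values were 5.93, 6.26 and 9.02 in controls and 10.84, 13.13, 11.76 and 11.30 after CCl4. Treated and control arrays did not overlap in either genotype, even though WT control 3 and Lcn2-/- control 3 lay well above the other controls. The difference was 4.08 in WT (SE 0.746, 16.9-fold, adjusted p = 0.00176, limma) and 4.69 in Lcn2-/- mice (SE 0.85, 25.8-fold, adjusted p = 0.00249). The size rested in part on those controls: it was 4.84 without WT control 3 and 5.67 without Lcn2-/- control 3. An exact two-sided permutation test over arrays gave p = 0.00794 and 0.0286, the smallest that 126 and 35 splits allow. With the slide as a block both calls were lost, at 3.12 (adjusted p = 0.177) and 3.49 (adjusted p = 0.283).

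The beta subunit that Itgax needs, Itgb2, did not pass the threshold. It read 9.18, 9.51, 11.83 and 9.87 in the WT controls and 10.79 to 12.09 after CCl4. The Lcn2-/- arrays read 9.04, 8.99 and 10.92 in controls and 10.63 to 11.52 after CCl4. Apart from WT control 3 and Lcn2-/- control 3, all treated arrays of a genotype were above its controls. The differences were 1.38 (SE 0.51, adjusted p = 0.0804, limma) and 1.29 (SE 0.581, adjusted p = 0.171). Without those 2 arrays they were 1.96 (adjusted p = 0.000289) and 1.92 (adjusted p = 0.00195), and with array weights, by which limma gives less weight to arrays that vary more and which use all 16, they were 1.89 (adjusted p = 0.00383) and 1.72 (adjusted p = 0.0101). Those 2 controls stood apart by their leukocyte markers, so leaving them out favours a call of Itgb2. Array weights raised the number of calls over all genes in both responses.

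No other leukocyte integrin passed the threshold with all 16 arrays weighted equally. Without WT control 3 and Lcn2-/- control 3, 4 of the 7 rose in WT (Itgax, Itgb2, Itga4 and Itgb7) and 5 in Lcn2-/- mice (the same 4 and Itgal), in a fit that called 22.3% and 15.1% of all genes. With all arrays, Itgal, the alpha subunit of LFA-1 on lymphocytes, differed by -0.11 (SE 0.414) in WT and 0.26 (SE 0.471) in Lcn2-/- mice. Its highest values, 11.13 and 10.92, were those of WT control 3 and Lcn2-/- control 3. Itga4, which binds VCAM1, differed by 0.85 (adjusted p = 0.276) and 1.17 (adjusted p = 0.204). Its partner Itgb7 differed by 0.30 and 0.51, with SEs of 0.695 and 0.791. Itgam, the alpha subunit of Mac-1 on neutrophils and macrophages, differed by -0.01 and -0.86 (SE 0.72 and 0.82). Its 3 probes disagreed: a dimmer one gave 1.20 and 0.65 and the dimmest -0.53 and -0.63, none of them past the threshold. Itgae, which pairs with Itgb7 and binds E-cadherin, was well above background on 3 arrays only, in 3 groups, and differed by 0.14 and 0.00 (SE 0.835 and 0.951).

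Markers of leukocytes differed among the same arrays. Their calls stand beside 8.05% of all genes called higher and 8.63% lower in WT mice, and 6.56% and 5.58% in Lcn2-/- mice. The probes of Itgam disagreed on WT control 3 as well, where the probe used read 10.74, below the 12.16 of WT control 2, and the dimmer one read 7.84, the highest of the WT controls. The mean of the 7 genes for all leukocytes ran from 10.48 to 12.58 in WT controls, 11.62 to 12.60 in treated WT mice, 10.31 to 11.97 in Lcn2-/- controls and 11.17 to 11.87 in treated Lcn2-/- mice. Among them Laptm5 rose in WT mice and none passed in Lcn2-/- mice. Of the 9 markers of macrophages and monocytes, Cd68, Lyz2 and Ms4a7 rose in both genotypes, and their mean ran from 10.60 to 13.21, 12.34 to 13.08, 10.27 to 12.05 and 11.87 to 12.29 in the same order of groups. Of the 5 markers of Kupffer cells, the resident macrophages, none rose, and Clec4f and Timd4 fell in WT mice. Of 5 markers of dendritic cells tested, 1 (Cd209a) rose, in Lcn2-/- mice, and their mean ran from 6.80 to 8.58, 7.23 to 8.27, 6.49 to 7.78 and 7.72 to 8.12 in the same order. Of 8 neutrophil markers S100a8, S100a9, Camp and Ngp rose in WT mice and none passed in Lcn2-/- mice, with means of 8.46 to 10.49, 10.45 to 11.24, 8.20 to 11.41 and 10.02 to 10.66. Of 10 markers of T and NK cells, Cd3e and Cd4 fell in WT and Cd4 in Lcn2-/- mice, with means of 7.96 to 9.90, 7.61 to 8.97, 7.49 to 8.60 and 7.67 to 8.29. In whole liver, more cells of a type and more RNA per cell cannot be told apart, and the part of cell numbers in the integrin values was not tested.

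**Figure D3:**
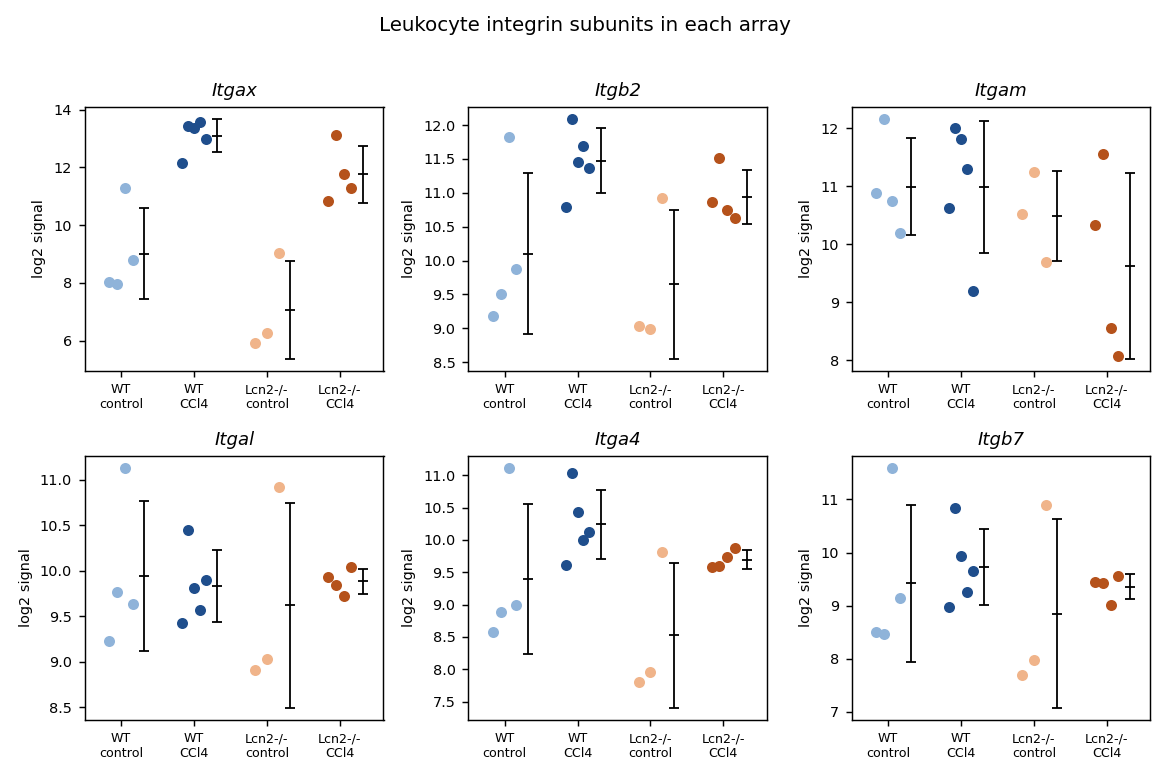
Log2 signal (y axis) of 6 leukocyte integrin genes in each array by group, with the mean and SD as black bars. The Itgax values after CCl4 lie above all controls of the same genotype, while WT control 3 is the highest WT control for Itgb2, Itgal, Itga4 and Itgb7.

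Itga2b, the platelet alpha subunit, was well above background on 10 of 16 arrays. It differed by 0.88 (SE 0.514) in WT and 0.17 (SE 0.585) in Lcn2-/- mice and passed the threshold in neither. Its partner Itgb3, shared with the alpha v subunit, differed by -0.35 and -0.48 (adjusted p = 0.273 and 0.206).

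Of the collagen-binding alpha subunits, which pair with Itgb1, Itga11 rose in both genotypes. Itga11 is the collagen receptor of fibroblasts. It read 7.32, 6.70, 7.93 and 7.44 in the WT controls and 9.47, 9.60, 9.53, 9.0 and 9.25 after CCl4. Lcn2-/- mice had 7.14, 6.21 and 6.51 in controls and 7.56, 8.62, 8.49 and 8.69 after CCl4. Each treated group lay above its controls, and every treated Lcn2-/- array lay below every treated WT array. The differences were 2.02 (SE 0.277, 4.06-fold, adjusted p = 0.0002, limma) in WT and 1.72 (SE 0.316, 3.29-fold, adjusted p = 0.00274) in Lcn2-/- mice. The slide block ended the Lcn2-/- call (1.84, adjusted p = 0.132) and not the WT call (2.12, adjusted p = 0.0221).

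Itga10, a collagen receptor known from cartilage, rose in WT mice by 0.76 (SE 0.241, 1.7-fold, adjusted p = 0.0436, limma), from 8.25, 8.41, 8.06 and 8.02 to 9.03, 8.95, 8.77, 8.64 and 9.35. In Lcn2-/- mice it read 8.67, 8.76 and 8.35 in controls and 9.08, 8.52, 9.57 and 10.00 after CCl4, with overlap, and the difference of 0.69 did not pass (adjusted p = 0.118). The WT groups did not overlap, but the call was near the threshold. It was lost when any of 11 arrays was left out, that is all but WT CCl4 4, Lcn2-/- control 3 and Lcn2-/- CCl4 1, 2 and 4, at 0.66 to 0.84 with adjusted p from 0.0141 to 0.10 over the 16 arrays. A second probe of Itga10 gave 0.72 and 0.84.

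The other collagen receptors were not called. Itga1 differed by 0.22 and 0.38 (adjusted p = 0.35 and 0.163). Itga2 was not well above background on any control array of either genotype, was so on 1 of 5 treated WT arrays and was so on all 4 treated Lcn2-/- arrays, where it read 5.72, 5.54, 5.51 and 7.77. Itga2 met the filter only through these treated Lcn2-/- arrays, so no size or test of its response is given here. The value of 7.77, from Lcn2-/- CCl4 4, stood apart from the other 3.

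Of the subunits that bind laminin, Itga3 rose in both genotypes by a small amount. Itga3 with Itgb1 is a laminin receptor of epithelium. It read 7.75, 7.32, 7.36 and 7.61 in the WT controls and 8.44, 8.04, 7.75, 8.09 and 7.93 after CCl4, with WT CCl4 3 level with WT control 1. In Lcn2-/- mice it read 7.35, 7.49 and 7.55 in controls and 8.36, 8.22, 8.05 and 7.75 after CCl4, with no overlap. The differences were 0.54 (SE 0.153, 1.45-fold, adjusted p = 0.0269, limma) and 0.63 (SE 0.175, 1.55-fold, adjusted p = 0.0287). The WT call was lost without WT control 2 or 3 or WT CCl4 1 or 4 (0.44 to 0.62 over the 16 arrays, adjusted p up to 0.0919) and the Lcn2-/- call without Lcn2-/- control 1 or 2 or Lcn2-/- CCl4 1, 2 or 3 (0.55 to 0.75, adjusted p up to 0.116).

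Itga6 and Itgb4, which together anchor epithelial cells in hemidesmosomes, differed by 0.61 and 0.32 in WT and by 0.82 and 0.60 in Lcn2-/- mice, with adjusted p of 0.21, 0.223, 0.157 and 0.0588. Itga7, the laminin receptor of muscle, differed by -0.21 and -0.13 (adjusted p = 0.426 and 0.718). None of these 3 genes passed the threshold. With array weights, which raised the calls over all genes, Itga6 (1.00, limma adjusted p = 0.0195) and Itgb4 (0.63, adjusted p = 0.0164) did in Lcn2-/- mice.

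Itga8 had the smallest adjusted p of the members tested in both responses. It pairs with Itgb1, binds the RGD motif of matrix proteins such as nephronectin, and is known from smooth muscle and stellate cells. It read 11.32, 10.83, 11.39 and 11.34 in the WT controls and 14.08, 13.96, 13.58, 13.46 and 13.92 after CCl4. Lcn2-/- mice had 10.79, 10.91 and 10.60 in controls and 12.82, 13.33, 13.42 and 13.54 after CCl4. The groups were well apart, with no control above 11.39 and no treated array below 12.82. The differences were 2.58 (SE 0.176, 5.98-fold, adjusted p = 1.45e-06, limma) and 2.51 (SE 0.201, 5.68-fold, adjusted p = 5.34e-06). Both calls held when any array was left out and with the slide as a block (2.86 in each genotype, adjusted p = 0.000274 and 0.00138).

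**Figure D4:**
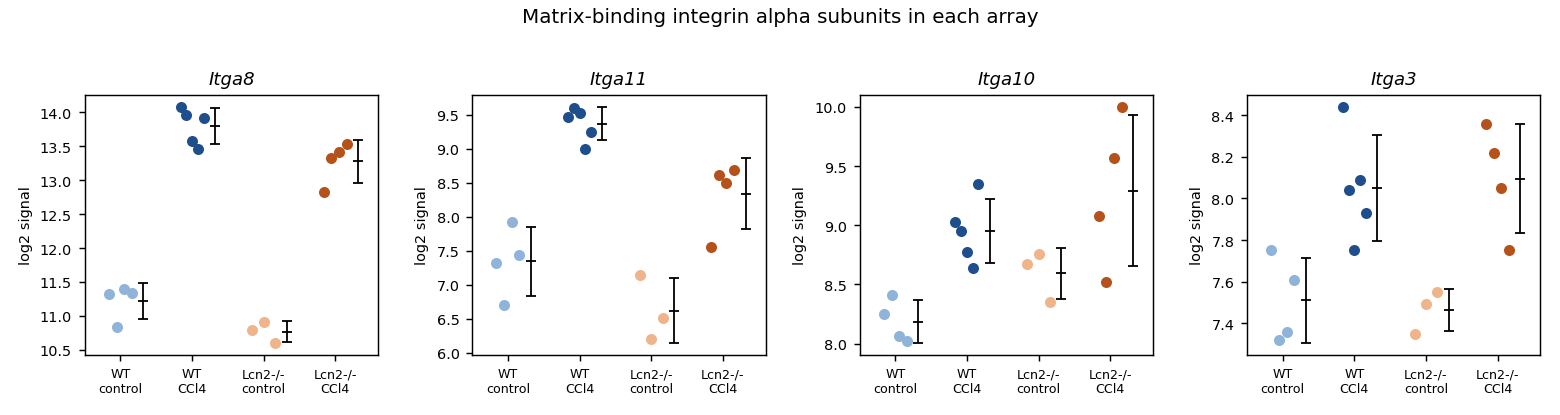
Log2 signal (y axis) of Itga8, Itga11, Itga10 and Itga3 in each array by group, with the mean and SD as black bars. Itga8 moved from 10.60 to 11.39 in controls to 12.82 to 14.08 after CCl4, and Itga11 was lower in treated Lcn2-/- mice than in treated WT mice.

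The subunits shared by many integrins moved little. Itgb1, the partner of most matrix receptors, differed by 0.13 (SE 0.115) in WT and 0.32 (SE 0.131) in Lcn2-/- mice. Itgav, which binds latent TGF-beta, differed by 0.09 (SE 0.233) and 0.39 (SE 0.265), and its other probe by 0.31 and 0.38. Its partner Itgb5 read 14.36 to 15.47 over the 16 arrays and differed by 0.46 and 0.40 (adjusted p = 0.112 and 0.252); without WT CCl4 5, whose Itgb5 was 14.52 against 15.12 or more in the other treated WT mice, the WT difference was 0.61 with an adjusted p of 0.0221. Itga5, the fibronectin receptor, differed by 0.34 and 0.58 (adjusted p = 0.244 and 0.0933). Itga9, which binds tenascin, differed by 0.33 and 0.17. Itgb6 and Itgb8, the other partners of the alpha v subunit that release TGF-beta, were not well above background on any of the 16 arrays.

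Of the laminin alpha chains, Lama2 rose the most in both genotypes. Lama2 is the alpha chain of muscle and nerve laminin. It read 9.36, 8.77, 9.63 and 9.29 in the WT controls and 11.54, 11.73, 11.31, 11.26 and 11.31 after CCl4. The Lcn2-/- arrays read 9.33, 8.94 and 9.14 in controls and 11.04, 11.19, 11.36 and 11.46 after CCl4. The groups were far apart, with no control above 9.63 and no treated array below 11.04. The differences were 2.17 (SE 0.165, 4.49-fold, adjusted p = 2.09e-06, limma) and 2.13 (SE 0.187, 4.37-fold, adjusted p = 1.14e-05). A second probe gave 2.18 and 2.15, and both calls held when any array was left out and with the slide as a block (2.27 and 2.26).

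Lama3 was the 1 member that fell. It is the alpha chain of the laminin that anchors epithelium, with Lamb3 as a partner. In WT mice it went from 10.06, 10.29, 9.75 and 9.66 to 8.49, 8.67, 9.25, 8.33 and 8.64, with no overlap. Lcn2-/- mice had 9.85, 10.46 and 10.01 in controls and 9.74, 8.99, 9.67 and 9.80 after CCl4, also with no overlap, and Lcn2-/- CCl4 2 stood apart as the lowest. The differences were -1.27 (SE 0.218, adjusted p = 0.00112, limma) and -0.56 (SE 0.248, adjusted p = 0.165). A second probe gave -1.36 and -0.79. The WT call held when any array was left out (-1.41 to -1.15).

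Lama5, the alpha chain of most adult basement membranes, rose by 0.51 in WT (SE 0.157, 1.42-fold, adjusted p = 0.0391, limma) and 0.72 in Lcn2-/- mice (SE 0.179, 1.65-fold, adjusted p = 0.0169). It read 9.98, 9.68, 9.61 and 9.89 in the WT controls and 10.26, 10.37, 10.29, 10.11 and 10.47 after CCl4. The Lcn2-/- values were 9.91, 9.93 and 9.45 in controls and 10.06, 10.45, 10.54 and 10.87 after CCl4. The groups did not overlap in either genotype. The WT call was lost without any of the 4 WT controls, WT CCl4 1, 2, 3 or 5 or Lcn2-/- CCl4 3 (0.45 to 0.57 over the 16 arrays, adjusted p up to 0.11), and the Lcn2-/- call without Lcn2-/- control 3 (0.57, adjusted p = 0.0704). Lama4, found in the basement membrane of vessels, differed by 0.30 and 0.57 (adjusted p = 0.308 and 0.0952), and Lama1 by -0.17 in each genotype.

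Lamb2, a beta chain of mature basement membranes, rose almost equally in both genotypes. It read 8.27, 8.0, 8.49 and 8.70 in the WT controls and 9.78, 9.26, 9.32, 9.08 and 9.16 after CCl4. Lcn2-/- mice had 8.24, 8.38 and 8.19 in controls and 9.15, 9.17, 9.25 and 9.32 after CCl4. No groups of a genotype overlapped. The differences were 0.96 (SE 0.154, 1.94-fold, adjusted p = 0.000663, limma) and 0.95 (SE 0.175, 1.94-fold, adjusted p = 0.00271), and were 1.42 and 1.53 with the slide as a block, both still called. The related Lamb1-1, the beta chain of most laminins, rose by 1.15 (SE 0.129) and 1.36 (SE 0.147). Lamb3 differed by -0.10 and 0.07.

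Of the gamma chains, Lamc1 and Lamc3 rose in Lcn2-/- mice. Lamc1, the gamma chain of most laminins, read 11.33, 11.41 and 11.31 in Lcn2-/- controls and 12.43, 12.45, 12.06 and 12.08 after CCl4, a difference of 0.90 (SE 0.198, 1.87-fold, adjusted p = 0.00837, limma). In WT mice it read 11.53, 11.50, 11.79 and 10.98 in controls and 11.75, 12.30, 12.17, 11.79 and 11.63 after CCl4, with overlap. The WT difference of 0.48 did not pass (adjusted p = 0.077, limma). It passed without WT control 3 (0.59, adjusted p = 0.0331) and with normexp background correction (0.50, adjusted p = 0.0428). It also passed with array weights (0.49, adjusted p = 0.0263), which raised the calls over all genes. Lamc3 read 7.05, 7.15 and 6.39 in Lcn2-/- controls and 7.99, 8.91, 8.74 and 8.75 after CCl4, a difference of 1.73 (SE 0.392, 3.32-fold, adjusted p = 0.00998). In WT mice it read 7.99, 7.25, 7.16 and 7.53 in controls and 9.01, 8.80, 7.91, 7.09 and 8.34 after CCl4. Here the groups overlapped, the SD after CCl4 was 0.764, and the difference of 0.75 did not pass (adjusted p = 0.156) unless WT CCl4 4, the lowest, was left out (1.04, adjusted p = 0.0279). The slide block ended the Lcn2-/- calls of Lamc1 (0.68, adjusted p = 0.384) and Lamc3 (2.70, adjusted p = 0.0538).

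**Figure D5:**
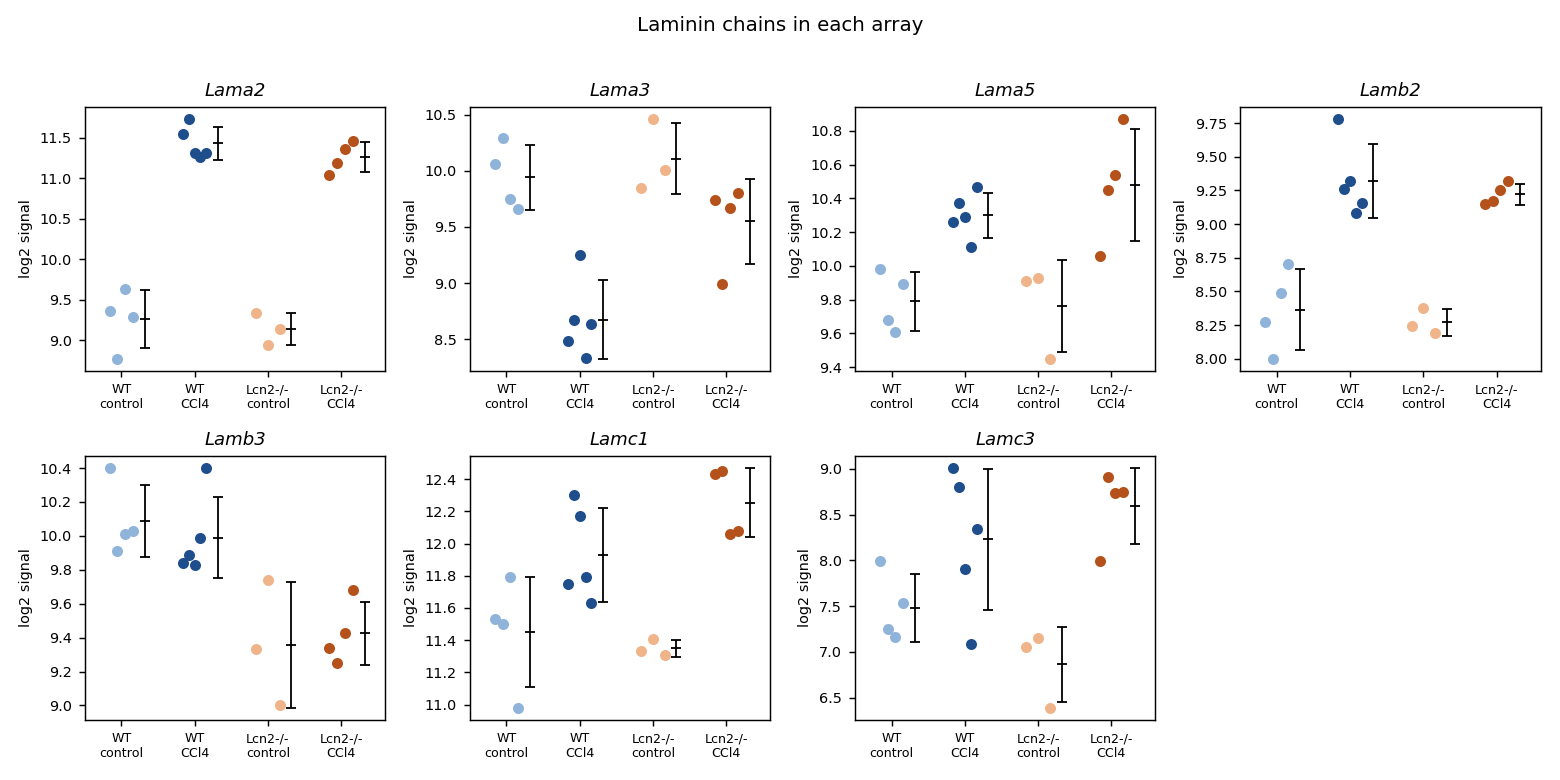
Log2 signal (y axis) of 7 laminin genes in each array by group, with the mean and SD as black bars. Lama2 and Lamb2 are higher after CCl4 in both genotypes, Lama3 is lower after CCl4 in WT mice, and Lamb3 is lower in Lcn2-/- mice, with no overlap between genotypes within a treatment.

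The comparison of genotypes asks whether the loss of Lcn2 changed the level of these genes. Under CCl4, 0 of the 33 genes passed the threshold, where 0.649% of all genes were called by limma; 4 had an unadjusted p under 0.05 (Itga11, Itga8, Lama3 and Lamb3), as had 13.6% of all genes. Itga2, which met the filter through the treated Lcn2-/- arrays, is left out of this count. In controls 0 of 33 passed, where 0.517% of all genes were called, and 5 had an unadjusted p under 0.05 (Itga11, Itga5, Itga8, Itgax and Lamb3), as had 8.31% of all genes. Both sets of genotype differences share no array. Averaged over both treatments, 2 genes were lower in Lcn2-/- mice, Itga11 and Lamb3, and 0 were higher, where 2.32% of all genes were called and 1.45% were lower. The CCl4 responses of the genotypes share no array either, and their difference (the interaction) passed for 0 of 33 genes, where 0.0534% of all genes were called; Lama3 had the 1 unadjusted p under 0.05 (0.71, SE 0.33; limma adjusted p = 1), as had 3.31% of all genes. That a gene passed in 1 genotype and not in the other is thus not shown to be a difference between them.

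Lamb3, the beta chain of epithelial laminin, was lower in Lcn2-/- mice with and without CCl4. It read 10.40, 9.91, 10.01 and 10.03 in the WT controls and 9.33, 9.74 and 9.0 in the Lcn2-/- controls. After CCl4 it read 9.84, 9.89, 9.83, 9.99 and 10.40 in WT and 9.34, 9.25, 9.43 and 9.68 in Lcn2-/- mice. The genotypes did not overlap within either treatment. The difference over both treatments was -0.65 (SE 0.127, adjusted p = 0.015, limma), made of -0.73 in controls (adjusted p = 0.132) and -0.56 under CCl4 (adjusted p = 0.169). It held when any array was left out (-0.74 to -0.56) and with the slide as a block (-0.67, adjusted p = 0.0187). The row of the array on its slide nearly coincided with genotype: WT arrays lay in the first row except WT CCl4 1, which lay in the second row with the Lcn2-/- arrays. WT CCl4 1 read 9.84, where the other treated WT arrays read 9.83 to 10.40. In controls row and genotype cannot be told apart, and the part of the row in the difference was not tested.

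Itga11 was lower in Lcn2-/- mice over both treatments by 0.88 on the log2 scale, that is -0.88 (SE 0.21, adjusted p = 0.0426, limma), made of -0.73 in controls (adjusted p = 0.537) and -1.03 under CCl4 (adjusted p = 0.127). The control groups overlapped and the treated groups did not. This call was near the threshold: it was lost when any of 11 arrays was left out, that is all but WT control 2, WT CCl4 4, Lcn2-/- control 1 and Lcn2-/- CCl4 2 and 4 (-1.01 to -0.75 over the 16 arrays, adjusted p from 0.022 to 0.121). The call was also lost with the slide as a block (-0.87, adjusted p = 0.0643, limma) and with the replicate number as a block (-0.89, adjusted p = 0.0958). WT CCl4 1, in the second row, read 9.47, and the part of the row was again not tested.

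Some uncalled genotype differences rested on groups that did not overlap or on few arrays. Lama3 was 0.87 higher in treated Lcn2-/- than in treated WT mice (SE 0.218, adjusted p = 0.103); the groups overlapped through Lcn2-/- CCl4 2 and WT CCl4 3, and the difference passed without the first (1.06, adjusted p = 0.0366) or the second (1.02, adjusted p = 0.049). Itga8 was 0.52 lower, that is -0.52 (SE 0.176, adjusted p = 0.225). Itgax differed by -1.34 (SE 0.746) under CCl4 and -1.95 (SE 0.85) in controls, with overlap in both and adjusted p of 0.45 and 0.542. The Itgax difference in controls ran from -2.93 to -1.19 with 1 array left out, and it passed with array weights (-2.25, adjusted p = 0.046, limma). Itgav differed by -0.53 in controls (SE 0.265, adjusted p = 0.658), where the groups did not overlap; its other probe gave -0.18, with overlap. Lamc3, whose probe lies at chr2:31801996-31802055 on mm9, 438 kb from that of Lcn2, differed by -0.62 in controls and 0.36 under CCl4 (SE 0.392 and 0.344), and the part of this position in its values was not tested. The other 5 tested genes of chromosome 2 (Itga8, Itga6, Itga4, Itgav and Lama5) lie 20.2 to 148 Mb from Lcn2.

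Other genes that act with integrins and laminins were read from lists by role. Of 12 matrix ligands of integrins tested, 9 rose in both genotypes and 0 fell, where 8.05% of all genes were called higher in WT and 6.56% in Lcn2-/- mice. Col1a1 and Col1a2, the chains of collagen I, rose by 3.49 and 2.89 in WT and by 4.21 and 2.98 in Lcn2-/- mice. Spp1 (osteopontin), Fbn1, Emilin1, Mfge8, Postn, Thbs1 and Col3a1 also rose, while Tnc, Tnn, Npnt and Edil3 were too dim to test. Of 9 genes on a list of TGF-beta ligands, the Ltbp family and related genes, 6 rose in both genotypes. These were Tgfb2, Tgfb3, Ltbp1, Ltbp2, Ltbp3 and Lrrc32, against the same shares of all genes (8.05% and 6.56%). Ltbp2, which binds to microfibrils, rose by 3.67 and 3.46, and the ligand Tgfb3 by 2.63 and 2.29. The median of the first list was 1.76 and 2.04, and that of the second 1.42 and 1.45, against -0.03 and -0.02 over all genes.

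Of 17 basement membrane partners and other laminin receptors, 7 rose and 1 (Col4a6) fell in each genotype, where 8.05% and 6.56% of all genes were called higher. Col4a5 and Col4a1, chains of the collagen IV network to which laminin is tied, rose by 2.72 and 1.21 in WT and by 3.27 and 1.81 in Lcn2-/- mice. The nidogens Nid1 and Nid2, which link the networks, Col4a2 and Sparc rose in both genotypes, Col7a1 in WT and the laminin receptor Bcam in Lcn2-/- mice. Of 22 activators and adaptors tested, 4 were called in WT (Lims1 and Fblim1 rose, Fermt2 and Ptk2b fell) and 2 in Lcn2-/- mice (Parvb and Fblim1 rose), where 16.7% and 12.1% of all genes were called. Fblim1, which binds filamin and kindlin at adhesions, rose by 2.52 (SE 0.286) and 2.67 (SE 0.326). Of 10 counter-receptors of leukocyte integrins, Cdh1 (E-cadherin, bound by Itgae with Itgb7) rose by 0.94 and 0.75 and Jam3 (bound by Itgam with Itgb2) by 0.84 and 0.73, and Madcam1 fell in WT mice. Between genotypes over both treatments, 1 of the 22 adaptors, 1 of the 12 ligands and 1 of the 17 basement membrane partners were called and none of the other lists, where 2.32% of all genes were. They were lower in Lcn2-/- mice: Fblim1 (-0.96, SE 0.217, adjusted p = 0.0315, limma), Fbn1 (-0.69, SE 0.158, adjusted p = 0.0351) and Nid2 (-0.32, SE 0.0796, adjusted p = 0.0492).

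Markers of other cell types were read beside the matrix receptors. Over all genes, 8.05% were called higher and 8.63% lower in WT mice, and 6.56% and 5.58% in Lcn2-/- mice. Of 8 markers of stellate cells and fibroblasts, 7 rose in WT and 6 in Lcn2-/- mice. Their mean ran from 10.37 to 11.41 in WT controls, 11.93 to 12.62 in treated WT mice, 10.20 to 10.38 in Lcn2-/- controls and 11.86 to 12.19 in treated Lcn2-/- mice, so that it did not overlap between treated and control arrays of a genotype. Of 6 markers of cholangiocytes, 1 (Spp1) rose in each genotype, and their mean ran from 8.43 to 9.15, 9.16 to 9.73, 8.67 to 8.75 and 9.23 to 9.96. Of 4 markers of mesothelium, Upk3b and Wt1 rose in WT and Wt1 in Lcn2-/- mice. Of 7 endothelial markers, Lyve1 rose in both genotypes and Stab2 fell in WT mice. None of 4 smooth muscle markers passed in either genotype, with means of 7.91 to 9.71, 7.91 to 10.53, 8.05 to 8.30 and 7.74 to 8.61. Of 4 skeletal muscle markers Acta1 and Myl1 could be tested, and only Myl1 was called, at 2.83 and 1.97. Their mean ran from 3.95 to 4.31, 5.45 to 6.17, 3.46 to 4.15 and 4.94 to 5.15. It did not overlap between treated and control arrays of a genotype. The control means were as low as Itga2 in the WT controls (3.52 to 4.96), which was not well above background there. The sizes are therefore uncertain. Myh4 and Ckm, which define skeletal muscle, were not well above background on enough arrays to be tested. Of the markers of tissue beside the liver and of blood, Amy2a5 of the pancreas rose by 1.16 and Cfd of fat and Alas2 of red cells differed by -2.12 and -0.82 in WT mice, all called there and not in Lcn2-/- mice. The mean of the 2 fat markers tested, Cfd and Car3, ran from 12.04 to 12.54 in WT controls and 11.03 to 11.20 in treated WT mice. These ranges did not overlap, but of the 2 genes only Cfd was called. Adipoq and Plin1 of fat, and Cpa1, Prss2 and Pnlip of the pancreas, were not tested. The part of these cell types in the values of Itga8, Itga11, Lama2 and the other members was not tested.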

How the data were processed

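RNA of whole liver from 16 mice was hybridised to one-colour Agilent mouse arrays. The authors deposited each array's scanner output from Feature Extraction 10.7.3.1, whose processed signal is a background-subtracted linear intensity per spot, and a table of log2 values, which equals quantile-normalized log2 of median signal minus local background within 0.05 for 99.76% to 99.93% of values; its column medians run from 6.532 to 6.551. The main values were log2 processed signals, without control and outlier spots, quantile-normalized over all arrays (the normalization and test that the methods name), with spots of a probe averaged and the brightest passing probe kept for each gene. A gene was tested if its probe was well above background on at least 3 arrays. 1 limma 3.58.1 model (R 4.3.3) with a mean per group was fitted across all 24357 genes, and p-values were adjusted by the Benjamini-Hochberg method over all of them in each comparison; the threshold was 0.05. It was tested on simulated data first.

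The members, lists and comparisons were chosen with earlier results of these data known. Values of every array are given for up to 3 called members per group with the largest mean response, for members called between genotypes, and for Lcn2; other lists name up to 2 genes called in both responses. Alternatives covered background correction, scaling, the deposited table, the filter, the probe choice, the replicate number, the slide, array weights, the variance model and leaving out arrays. Only between controls did same-numbered arrays deviate together for every pair (r = 0.233, 0.368 and 0.552), with no common origin given. Replicates were separate mice, and between arrays of a group r was 0.9737 to 0.9916. The values of 1 member are not reported here, though its counts stay in. The number of arrays limits the precision. Probe positions are on mm9 from the scanner files, and whether a probe lies in an exon was not analysed here.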

Additional observations from a re-analysis of the deposited data

Results flagged for a closer look

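Within 99 groups of 4 or 5 arrays, 10 values lay apart from the rest of their group by Dixon's criterion, which picks out about 1 in 20 groups by chance. WT CCl4 5 was low for Itga1 (10.04, others 10.46 to 10.60) and Itgav (9.60, others 10.38 to 10.54) and high for Lamb3 (10.40, others 9.83 to 9.99). WT control 3 was high for Itga4 (11.11, others 8.58 to 9.0) and Itgae (3.92, others 2.93 to 3.01), the latter not well above background. WT control 2 was high for Itga5 (9.0, others 8.27 to 8.31) and low for Itga8 (10.83, others 11.32 to 11.39). WT CCl4 2 was high for Itgae (4.69, others 2.90 to 3.13). In treated Lcn2-/- mice, array 4 was high for Itga2 (7.77, others 5.51 to 5.72) and array 2 low for Lama3 (8.99, others 9.67 to 9.80). WT control 3 also held the highest leukocyte markers of the WT controls (12.58).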

How the results depend on the processing

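No called difference of a member changed its direction under any alternative tried. In the WT response 8 of 33 members, none called, changed sign under at least 1 alternative (Itga2, Itgae, Itgal, Itgam, Itgb7, Lama1, Lama4 and Lamb3, of at most 0.30 in size), and in the Lcn2-/- response 8 (Itga2b, Itga9, Itgae, Itgal, Itgb3, Itgb7, Lama1 and Lamb3, at most 0.51). Single second probes also differed in sign from the probe used for Itgb3 in Lcn2-/- mice (0.79), for Itgal in WT (0.01), for Itgb1 (-0.05 and -0.06) and for Itga4 (-0.02 and -0.19). Counts of genes past the threshold moved as follows. In Lcn2-/- mice the CCl4 response held 9 genes, 3 with the slide as a block, 17 with array weights and 8 to 10 with 1 array left out. In WT mice it held 9, and 6 to 10 with 1 array left out. Between genotypes under CCl4 it held 0, and 0 to 1 with 1 array left out. In controls it held 0, and 2 with array weights (Itgax and Lamb3). Over both treatments it held 2, and 1 with 75th percentile scaling, 1 with no filter on dim probes, 1 with the slide as a block, 5 with array weights and 1 to 3 with 1 array left out. The interaction held 0 throughout. With the replicate number as a block the counts were 10 in WT, 12 in Lcn2-/- mice and 2 over both treatments (Itgb5 and Lamb3, with Itga11 at -0.89, adjusted p = 0.0958); those numbers pair no samples by the labels. That block ended the WT calls of Itga10 (0.66, adjusted p = 0.135) and Lama5 (0.47, adjusted p = 0.103) and added Itga6, Itgb5 and Lamc1 in WT and Itga1, Itga6 and Itgb5 in Lcn2-/- mice (Itgb5 in WT at 0.61, adjusted p = 0.00413; Itga6 in Lcn2-/- mice at 1.00, adjusted p = 0.0102). The deposited table kept all 9 calls of each response and added Itga8 over both treatments. The 75th percentile scaling moved the median of all genes to -0.16 in WT and -0.14 in Lcn2-/- mice, the median of the members to 0.25 and 0.42, and the share of higher calls over all genes from 48.3% to 30.7% and from 54% to 36.3%; Itga3 was then not called (0.40 and 0.44). With the slide as a block 1295 and 426 of all genes were called in the responses, and with array weights 7006 and 6975, against 4064 and 2958 in the main fit. The weights added Itga4, Itgb2, Itgb5 and Lamc1 in WT, and Itga10, Itga4, Itga6, Itgav, Itgb2, Itgb4, Itgb5 and Lama4 in Lcn2-/- mice. These additions came with more calls over all genes. Shares of all genes under the replicate block, and in the weighted genotype comparisons, are not given here. The cause of these shifts was not tested. In Lcn2-/- mice Itga10, Itga5, Itgb1 and Lama4 each passed without 1 array (Lcn2-/- CCl4 2, 3, 4 and 1, at 0.95, 0.72, 0.41 and 0.72), and Itgb4 without WT control 1, WT control 2 or Lcn2-/- CCl4 1. The genotype call of Lcn2 under CCl4 was lost without any of 13 arrays (-3.56 to -2.93) and that in controls without Lcn2-/- control 1 or 2. Genes well above background on part of the arrays, such as Itgae, Itga2 and Itga2b, have wide errors.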

Other observations

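Itgbl1, a secreted protein with repeats like those of the integrin beta subunits and no subunit itself, was measured beside the members and stood outside the rule. It read 7.35, 6.83, 7.33 and 7.02 in WT controls and 10.31, 10.08, 10.27, 9.75 and 10.02 after CCl4, and 6.49, 6.34 and 5.99 in Lcn2-/- controls and 8.08, 9.18, 9.38 and 8.91 after CCl4. The differences were 2.95 (SE 0.229) in WT and 2.61 (SE 0.261) in Lcn2-/- mice. Genotypes did not overlap within either treatment, with differences of -1.20 (SE 0.229) under CCl4 and -0.86 (SE 0.261) in controls. Its pattern was chosen for description after its values were seen.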
